A study of Homo sapiens with 15 samples.

Results

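The 9 genes described here encode proteins that bring histone deacetylases to chromatin: RCOR1, RCOR2, RCOR3 and KDM1A of the CoREST complex, NCOR1 of the NCoR complex, SIN3A of the SIN3 complex, MTA1 and CHD4 of the NuRD complex, and REST, a DNA-binding repressor that recruits CoREST and SIN3 and is not itself a core subunit. They were taken by name, with earlier results of these data known. The count table holds 60649 genes, of which 23711 had enough reads for a test, and all 9 passed that filter. The RNA came from K562 cells, an established human myelogenous leukemia line that carries the BCR-ABL fusion kinase and erythroid features, all grown in the same medium. Cells were left untreated or received martinostat, a hydroxamate inhibitor of histone deacetylases, for 24 h at a dose of 0.15, of 0.25, of 0.5 or of 1 µM, with 3 libraries per group that the labels call biological replicates. The labels name the control cells as untreated and mention no solvent control, and p-values measure the spread between these cultures of 1 cell line.

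Histone deacetylases 1, 2 and 3 do not bind DNA themselves. They work inside large assemblies, where a scaffold protein such as an RCOR protein, NCOR1, SIN3A or an MTA protein holds the enzyme, other subunits read or remodel nucleosomes, and a DNA-binding factor chooses the target. In CoREST the scaffold also holds KDM1A, the lysine demethylase that removes methyl groups from histone H3 lysine 4, and in NuRD the helicase CHD3, CHD4 or CHD5 moves nucleosomes. In erythroid cells the factor GFI1B is known to act through CoREST, and in non-neuronal cells REST is known to keep neuronal genes off. An inhibitor blocks the enzyme, and the question of the dose series, as far as these genes go, is how the mRNA of the parts that carry the enzyme moves with dose.

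The libraries held between 23755510 and 32805574 counts. Levels are given as CPM, the counts per 1000000 of a library total after TMM scaling, which sets most genes of 2 libraries level. Changes are log2 fold changes with standard errors from one edgeR quasi-likelihood fit of all 15 libraries, and a gene is called when its Benjamini-Hochberg p, adjusted over all genes tested, is under 0.05. The third libraries at 0.25 and 0.5 µM stood apart from the rest on the third principal component, which held 3.84% of the variance, at 78.4 and 82.6, where the others lay between -54.3 and 25.4. Of 4 genes that mark erythroid cells, GATA1, TAL1, KLF1 and EPOR, the summed level was 864 to 920.2 CPM in untreated libraries and 614 to 687, 354 to 404, 57.7 to 71.9 and 55.6 to 72.0 CPM in those of the rising doses. The sum of 3 markers of other cell types, CD3E, COL1A1 and EPCAM, went from 136 to 152 CPM in untreated libraries to 311 to 497 CPM at 1 µM, and none of the 3 was at 0 in any group. The 3 moved apart, since COL1A1 rose from 4.36 ± 0.95 to 398 ± 94.4 CPM (SD, n = 3), EPCAM fell from 141 ± 9.54 to 20.5 ± 1.87 and CD3E, at 0.54 untreated and 0.97 at 1 µM, was not called at that dose. Of the 4 erythroid genes edgeR called 1, 2, 4 and 4 lower in order of dose and 0 higher. The share of all tested genes called lower was 19.4%, 24.8%, 27.6% and 27.5%. These marker levels changed over the same doses as the genes below, though not always in step with them. Their part in the changes below was not tested. In bulk RNA, fewer cells of a type and less of the RNA per cell cannot be told apart.

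At the 2 lower doses most of the called genes among the 9 were lower than in untreated cells, and at the 2 higher doses rises and falls were about even. At 0.15 µM 6 of the 9 were called, 1 higher and 5 lower, where 51.2% of all tested genes were called, 31.9% higher and 19.4% lower. At 0.25 µM it was again 1 higher and 5 lower, beside 62.3% of all genes, 37.4% higher and 24.8% lower. At 0.5 µM 4 were higher and 4 lower, beside 66.9%, 39.4% and 27.6% of all genes. At 1 µM 3 were higher and 4 lower, beside 66.2%, 38.8% and 27.5%. The treated and untreated libraries did not overlap for 7, 7, 8 and 8 of the 9 in order of dose, beside 63.2%, 67.5%, 69.9% and 74.9% of all genes. The shares called in any direction and the shares not overlapping are not far from the background. The falls at the 2 lower doses were above their background with TMM. With library totals, however, 0 of the 9 were called lower at 0.15 µM and 1 at 0.25 µM. The number of called genes therefore says little about the group, and what follows rests on the single genes. Over all 5 groups together edgeR called 8 of the 9, with RCOR3 left out at an adjusted p of 0.104, beside 73.6% of all genes. The 4 comparisons with untreated cells share the same 3 untreated libraries.

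**Figure D1:**
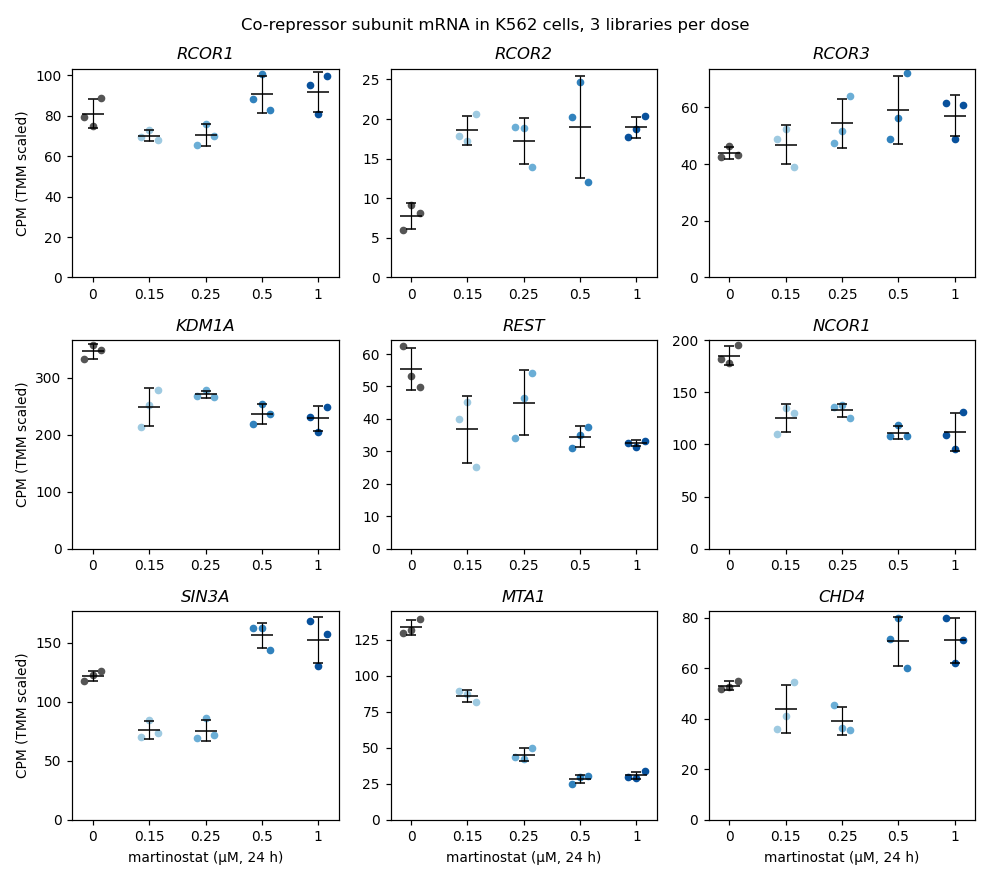
Level of each of the 9 genes in every library, in CPM scaled by TMM (vertical axis from 0), against the martinostat dose in µM after 24 h. Coloured points are the 3 libraries of a dose, drawn from left to right as replicates 1 to 3, and black bars are the mean and SD. MTA1 steps down to 28.5 CPM at 0.5 µM, RCOR2 lies higher at every dose, and SIN3A and CHD4 lie lower at 0.25 µM and higher at 0.5 and 1 µM than in untreated cells.

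The choice of scaling between libraries mattered for several of these genes. With TMM all tested genes had a median log2 fold change of 0.28, 0.32, 0.34 and 0.32 in order of dose, and with library totals alone of 0.64, 0.85, 0.72 and 0.67. Of all called genes, 62.2%, 60.1%, 58.8% and 58.5% were higher with TMM and 81.9%, 79.2%, 70.2% and 69.3% with library totals. Among the 9, library totals left 1 called at 0.15 µM, a rise, and 4 at 0.25 µM, 3 rises and 1 fall, and gave 5 rises and 2 falls at both higher doses. A direction called with TMM is therefore given below with the scaling under which it flips or is lost, over 4 scalings: TMM, the relative log expression factors (RLE), library totals, and TMM factors set from genes of at least 10 CPM.

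**Figure D2:**
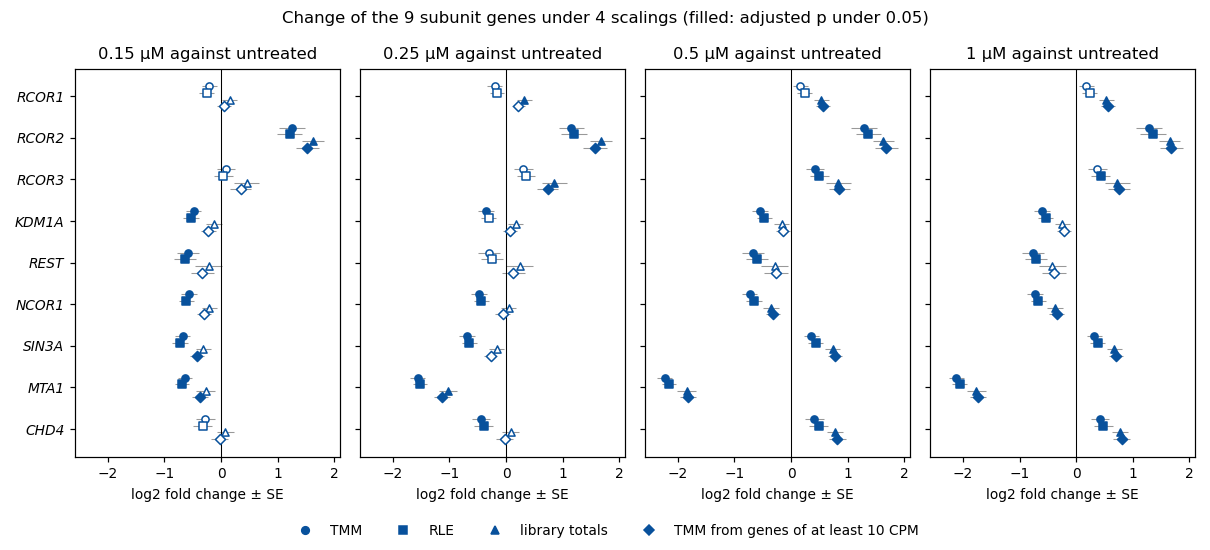
Log2 fold change against untreated cells with its standard error (horizontal axis) for the 9 genes at each dose, under 4 scalings marked by the shape of the point. Filled points have an adjusted p under 0.05 in edgeR's quasi-likelihood test. RCOR2 is to the right of 0 and MTA1 to the left at every dose under all 4 scalings, with MTA1 at 0.15 µM not called under library totals, whereas KDM1A and REST lose their calls under library totals and under factors from genes of at least 10 CPM.

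Among the RCOR scaffolds, RCOR2 rose at the lowest dose and stayed there, and with TMM RCOR1 was not called at any dose and RCOR3 passed the test at 0.5 µM only. RCOR2, the scaffold best known from stem and neural cells, lies at chr11:63911230-63917164 on the minus strand of hg38 (ENSG00000167771). Its level was 6.01, 9.15 and 8.10 CPM without martinostat, 17.8, 17.3 and 20.6 with 0.15 µM of it, 19.0, 18.9 and 13.9 with 0.25 µM, 20.3, 24.6 and 12.0 with 0.5 µM and 17.8, 18.8 and 20.4 with 1 µM. Each of the 12 treated libraries lay above all 3 untreated ones, and the lowest treated values were those of the third libraries at 0.25 and 0.5 µM. The log2 fold changes were 1.26 ± 0.23 (SE), 1.15 ± 0.23, 1.29 ± 0.23 and 1.29 ± 0.23 in order of dose, with edgeR adjusted p from 6.14e-05 to 0.000229. No step between doses was called for RCOR2, and from 0.15 to 1 µM the difference was 0.03 ± 0.22. The rise passed the test at all 4 doses under each of 27 alternatives, with values between 0.99 and 1.68.

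RCOR1, the scaffold through which CoREST was first described (ENSG00000089902, chr14:102592649-102730561, plus strand), was at 79.3, 74.8 and 89.0 CPM in untreated libraries, 69.7, 73.1 and 68.0 with 0.15 µM, 65.5, 76.0 and 70.0 with 0.25 µM, 88.2, 100.8 and 82.9 with 0.5 µM and 95.1, 80.8 and 99.5 with 1 µM. Against untreated cells its log2 fold changes were -0.21, -0.20, 0.16 and 0.18, each ± 0.13, and none passed edgeR's test, with adjusted p from 0.19 to 0.286. Between 0.25 and 0.5 µM it rose by 0.36 ± 0.13 (edgeR adjusted p = 0.0424), a call that 17 of 27 alternatives lost, library totals among them. Against untreated cells RCOR1 depended on the scaling. Library totals gave 0.16, 0.32, 0.53 and 0.53 in order of dose, called at the 3 higher doses with edgeR adjusted p of 0.0403, 0.00177 and 0.00176. Factors from genes of at least 10 CPM gave 0.05, 0.22, 0.57 and 0.56, called at 0.5 and 1 µM (adjusted p = 0.000413 and 0.000471). RCOR3 (ENSG00000117625, chr1:211258377-211316385, plus strand) had means of 44.0 ± 2.14, 46.7 ± 6.88, 54.4 ± 8.59, 59.0 ± 11.9 and 57.0 ± 7.23 CPM (SD, n = 3) from untreated to 1 µM. At 0.5 µM it was 0.42 ± 0.17 higher (edgeR adjusted p = 0.0313) and at 1 µM 0.37 ± 0.17 (adjusted p = 0.0554). RCOR3 was called at 0.5 µM under all 4 scalings and at 1 µM under the other 3, at 0.43 with RLE, 0.73 with library totals and 0.75 with factors from genes of at least 10 CPM. With the last 2 scalings it was also called at 0.25 µM, at 0.85 and 0.73. Its highest value, 72.0 CPM, was in the third library at 0.5 µM, and without the third libraries at 0.25 and 0.5 µM the 0.5 µM value was 0.29 (adjusted p = 0.0705) and the 1 µM value 0.41 (adjusted p = 0.00501).

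KDM1A, also called LSD1, is the demethylase of CoREST (ENSG00000004487, chr1:23019443-23083689, plus strand). Its level was 333.2, 358.4 and 349.1 CPM without martinostat, 213.4, 252.3 and 279.5 with 0.15 µM of it, 269.0, 278.5 and 267.3 with 0.25 µM, 218.8, 254.3 and 236.9 with 0.5 µM and 232.0, 205.3 and 249.0 with 1 µM. All 12 treated libraries were below the 3 untreated ones on this scale. With TMM the log2 fold changes were -0.48, -0.35, -0.55 and -0.60, each ± 0.14, and all 4 were called with edgeR adjusted p of 0.0063, 0.031, 0.00155 and 0.000762. Library totals gave -0.13, 0.17, -0.17 and -0.25, and factors from genes of at least 10 CPM gave -0.22, 0.07, -0.14 and -0.22, with no call at any dose, so the size of the fall and its sign at 0.25 µM depend on the scaling. The 0.25 µM call was the least firm and was lost in 13 of 27 alternatives, among them RLE (edgeR adjusted p = 0.0531).

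NCOR1, the scaffold that carries histone deacetylase 3 to nuclear receptors and other factors (ENSG00000141027, chr17:16029065-16218185, minus strand), was lower at every dose with TMM. It stood at 182.0, 178.1 and 195.5 CPM in untreated libraries, 109.8, 135.0 and 130.5 with 0.15 µM, 135.6, 137.6 and 125.7 with 0.25 µM, 108.0, 118.6 and 107.7 with 0.5 µM and 109.4, 95.6 and 131.0 with 1 µM. No treated library reached the lowest untreated one. The log2 fold changes were -0.57, -0.48, -0.73 and -0.73, each ± 0.14, with edgeR adjusted p of 0.00199, 0.00529, 0.000117 and 0.00013. At 0.5 and 1 µM the fall was called under all 4 scalings, at -0.36 and -0.37 with library totals. At the lower doses the call was lost with library totals and with factors from genes of at least 10 CPM, and at 0.25 µM the sign turned to 0.04 with library totals.

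SIN3A, the scaffold of the SIN3 complex (ENSG00000169375, chr15:75369379-75455842, minus strand), fell at the lower doses and rose at the higher ones relative to untreated cells with TMM. Its level was 117.5, 122.5 and 126.1 CPM without martinostat, 70.5, 85.0 and 73.4 with 0.15 µM of it, 69.2, 86.2 and 71.6 with 0.25 µM, 162.8, 162.7 and 144.2 with 0.5 µM and 168.6, 130.6 and 157.8 with 1 µM. The libraries of the lower doses, of untreated cells and of the higher doses formed 3 ranges without overlap. Log2 fold changes were -0.68 ± 0.14, -0.69 ± 0.14, 0.36 ± 0.14 and 0.32 ± 0.14, with edgeR adjusted p of 0.000449, 0.00027, 0.0276 and 0.0476. From 0.25 to 0.5 µM it rose by 1.05 ± 0.14 (edgeR adjusted p = 1.21e-05), a 2.07-fold change, and from 0.15 to 1 µM by 1.00 ± 0.14 (adjusted p = 1.02e-05). The rise between 0.25 and 0.5 µM passed the test under each of 27 alternatives, at 0.52 to 1.15. The position of untreated cells between these levels was less certain, since library totals gave -0.32 (adjusted p = 0.0549) at 0.15 µM and -0.17 (adjusted p = 0.277) at 0.25 µM, factors from genes of at least 10 CPM gave -0.27 (adjusted p = 0.0588) at 0.25 µM, and the 1 µM call was lost in 12 of 27 alternatives, with adjusted p up to 0.198.

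CHD4, the main helicase of NuRD in most cells (ENSG00000111642, chr12:6570082-6614524, minus strand), followed the same order of doses. Its level was 51.7, 52.7 and 55.0 CPM in untreated libraries, 35.8, 41.1 and 54.5 with 0.15 µM, 45.4, 36.4 and 35.7 with 0.25 µM, 71.8, 79.8 and 60.3 with 0.5 µM and 79.8, 62.1 and 71.3 with 1 µM. The 6 libraries of the higher doses lay above all others, and the third library at 0.15 µM lay within the untreated range. Log2 fold changes were -0.28 ± 0.16, -0.44 ± 0.16, 0.41 ± 0.16 and 0.42 ± 0.16, with edgeR adjusted p of 0.165, 0.0257, 0.0334 and 0.0303. From 0.25 to 0.5 µM CHD4 rose by 0.85 ± 0.16 (edgeR adjusted p = 0.000583), a call kept under each of 27 alternatives. From 0.15 to 1 µM it rose by 0.70 (adjusted p = 0.00185), likewise called under each of 27. The values against untreated cells were less firm, since library totals turned those at 0.15 and 0.25 µM to 0.07 and 0.08, factors from genes of at least 10 CPM gave -0.02 at 0.25 µM (adjusted p = 0.908), and leaving out the third libraries at 0.25 and 0.5 µM gave -0.36 at 0.25 µM (adjusted p = 0.054). The calls at 0.5 and 1 µM were lost in 6 and 5 of 27 alternatives, including each that left out 1 untreated library. Of the exon bases of CHD4, 46.9% lie under another annotated gene on the same strand, which had 0 counts in every library, and how reads in those bases were counted is not given in the sources used here.

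Called lower at 0.25 µM, called higher at 0.5 µM and called between them was a pattern of 0.426% of all tested genes with TMM, and SIN3A and CHD4 were 2 of them. The same pattern between 0.15 and 1 µM was held by 0.536% of all genes, SIN3A among them. ING1 and SAP130 of the SIN3 complex and MXD1, a repressor that binds SIN3, were the other list genes with it, and they were picked out after their values were seen.

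MTA1, a NuRD scaffold that holds and activates the deacetylase (ENSG00000182979, chr14:105419820-105470729, plus strand), fell step by step and had the widest change of the 9. It was at 129.8, 131.8 and 139.6 CPM without martinostat, 89.3, 87.2 and 81.7 with 0.15 µM of it, 43.7, 42.3 and 50.2 with 0.25 µM, 25.1, 29.7 and 30.6 with 0.5 µM and 29.8, 29.1 and 33.7 with 1 µM. The groups up to 0.25 µM did not overlap with each other or with the higher doses, while those at 0.5 and 1 µM did overlap. Log2 fold changes against untreated cells were -0.64 ± 0.13, -1.56 ± 0.13, -2.23 ± 0.13 and -2.11 ± 0.13, with edgeR adjusted p from 3.92e-11 to 0.000341, so that the level at 0.5 µM was 4.69-fold lower. It fell by 0.92 ± 0.13 from 0.15 to 0.25 µM (edgeR adjusted p = 0.000178) and by 0.67 ± 0.13 from 0.25 to 0.5 µM (adjusted p = 0.000491). Both steps and the falls at 0.25, 0.5 and 1 µM were called under all 4 scalings. The fall at 0.15 µM was -0.27 with library totals and was not called there (adjusted p = 0.175).

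The RefSeq promoters (GRCh38.p14) of MTA1, SIN3A and CHD4 are shown because their change from 0.25 to 0.5 µM was called under each of 27 alternatives, in one direction for MTA1 and in the other for SIN3A and CHD4. Each line gives the bases just before the start site, 5′ to 3′ on the strand of the gene, with matches to the GC box GGGCGG on either strand, the sequence bound by SP1, in capitals.
MTA1 (chr14:105419577-105419826, plus strand): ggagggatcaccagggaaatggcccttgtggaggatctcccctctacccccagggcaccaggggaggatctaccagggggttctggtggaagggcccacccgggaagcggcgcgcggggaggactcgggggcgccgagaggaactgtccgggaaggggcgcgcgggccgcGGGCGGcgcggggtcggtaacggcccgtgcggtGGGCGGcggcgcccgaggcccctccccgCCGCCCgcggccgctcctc
SIN3A (chr15:75455816-75456065, minus strand): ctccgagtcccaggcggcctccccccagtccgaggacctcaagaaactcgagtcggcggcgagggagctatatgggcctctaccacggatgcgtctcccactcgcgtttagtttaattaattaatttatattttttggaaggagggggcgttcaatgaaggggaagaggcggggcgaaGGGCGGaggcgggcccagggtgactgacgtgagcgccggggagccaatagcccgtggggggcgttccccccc
CHD4 (chr12:6606452-6606701, minus strand): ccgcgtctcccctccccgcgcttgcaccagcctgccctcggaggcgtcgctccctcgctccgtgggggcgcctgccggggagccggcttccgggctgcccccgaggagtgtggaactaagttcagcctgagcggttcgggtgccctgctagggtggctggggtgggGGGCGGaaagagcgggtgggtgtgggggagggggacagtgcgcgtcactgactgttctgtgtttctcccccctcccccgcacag
The MTA1 promoter held 3 GC boxes and 30 CG dinucleotides, and those of SIN3A and CHD4 held 1 box and 21 CG dinucleotides each. Of the 35116 promoters in the reference, 42.6% held at least 1 box, and the median was 11 CG dinucleotides, so all 3 are CG-rich. The box count is a description of these letters, not evidence that a factor binds. RefSeq lists a second start for SIN3A, and the bases before it held 4 boxes and 17 CG dinucleotides. The promoter of RCOR1, whose call at that step was lost in 17 alternatives, held 5 boxes and 30 CG dinucleotides. RefSeq listed promoters for 8 of the 9 genes. The start that RefSeq gives for CHD4 lies inside the span of the gene given above, so other transcripts of CHD4 start upstream of the bases shown.

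Between neighbouring doses the 9 genes, like all tested genes, had most of their calls at 1 step. From 0.15 to 0.25 µM 1 of the 9 was called, MTA1, which fell, beside 12.3% of all tested genes, 7.32% lower. From 0.25 to 0.5 µM 4 were called, with RCOR1, SIN3A and CHD4 higher and MTA1 lower, beside 30.4% of all genes, 14.4% higher and 16% lower. Libraries with the same number at these 2 doses deviated together, and a paired fit of their 6 libraries called the same 4 and also REST at -0.37 ± 0.11 (edgeR adjusted p = 0.0135) and NCOR1 at -0.27 ± 0.09 (adjusted p = 0.0292). The paired fit, with 2 residual degrees of freedom, called 9935 of the 21562 genes it tested, against 7211 of 23711 in the main fit. With the replicate block over all 15 libraries RCOR1 was not called at this step (edgeR adjusted p = 0.0559). From 0.15 to 1 µM the same 4 were called in the same directions, beside 44.5%, 21.5% and 23.1%. From 0.5 to 1 µM edgeR called 0 of the 9 and 0% of all genes. At that step the unadjusted p was under 0.05 for 372 of all genes and for 0 of the 9, whose lowest was 0.374, and both DESeq2 and limma also called 0 of the 9. The members' log2 differences at that step lay between -0.09 and 0.12, with MTA1 at 0.12 ± 0.13.

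Levels can be compared between these genes only per length, here as CPM per kilobase of exon that no other annotated gene covers. The exons of all annotated transcripts of a gene were merged, which gave 18.3 kb for KDM1A and 6.2 kb for RCOR1. Which transcripts these cells make was not tested. The order below therefore depends on the merged lengths as well as on the mRNA. In untreated cells the order was MTA1 at 20.9 ± 0.80 (SD, n = 3), KDM1A 18.9 ± 0.70, RCOR1 13.1 ± 1.17, NCOR1 12.5 ± 0.62, SIN3A 10.2 ± 0.36, CHD4 9.74 ± 0.31, REST 5.93 ± 0.70, RCOR3 4.84 ± 0.24 and RCOR2 2.54 ± 0.52. RCOR1 and NCOR1 differed by less than their spread, and the ranges of mean ± SD of SIN3A and CHD4 overlapped. Over all of its exon bases CHD4 would stand at 4.18 ± 0.13, below RCOR3. At 1 µM RCOR1 was first at 14.8 ± 1.58, followed by CHD4 at 13.0 ± 1.62, SIN3A at 12.7 ± 1.64 and KDM1A at 12.5 ± 1.20. CHD4, SIN3A and KDM1A did not differ beyond their spread. The place of CHD4 rests on the length used, since with all exon bases counted it would be at 5.59 ± 0.70, below RCOR2. MTA1 had moved to the last place but one at 4.82 ± 0.39, with REST last at 3.48 ± 0.10, and RCOR2 at 6.23 ± 0.43 was level with RCOR3 at 6.27 ± 0.80.

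A ratio of the counts of 2 genes in the same library does not change with the scaling, so 8 such ratios were compared between the 3 untreated and the 12 treated libraries. With two-sided exact permutation tests over these 15 libraries, 5 of the 8 ratios passed at an adjusted p under 0.05. The share of other gene pairs that would pass was not taken, so this count says little about related genes as a set. RCOR2 to RCOR1 was 0.076, 0.123 and 0.091 in untreated libraries and had mean ratios of 0.264, 0.243, 0.202 and 0.208 from 0.15 to 1 µM. All 12 treated values were above all untreated ones, a log2 difference of 1.26 (exact p = 0.0022, the smallest these libraries can give, adjusted p = 0.00879). RCOR2 to RCOR3 was higher by 0.96 on the log2 scale (exact permutation adjusted p = 0.022), above all untreated values in 11 of 12 libraries. It no longer passed without untreated replicate 1. KDM1A to RCOR1, the enzyme against its scaffold, went from a mean of 4.29 in untreated libraries to 3.51, 3.86, 2.62 and 2.49, a log2 difference of -0.48 (exact permutation adjusted p = 0.0387) with 10 of 12 treated libraries below all untreated ones. This was the least firm, and it was lost in 4 of the 15 tests that left out 1 library. RCOR2 to RCOR1 was lost in 0 of these 15.

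The widest shift was between the NuRD helicases. CHD3 to CHD4 was 3.58, 3.55 and 3.79 in the untreated libraries and averaged 1.87, 1.09, 0.410 and 0.412 in order of dose. The level of this ratio does not give which mRNA is more abundant. It is not corrected for length, and how reads in the shared 46.9% of CHD4 exon bases were counted is not given. All 12 treated libraries were below the untreated ones, with a log2 difference of -2.25 (exact permutation p = 0.0022, adjusted p = 0.00879). In CPM, CHD3 went from 193.5 ± 12.9 (SD, n = 3) to 29.2 ± 2.77 at 1 µM while CHD4 went from 53.1 ± 1.67 to 71.1 ± 8.86. MTA3 to MTA1 rose by 0.61 on the log2 scale (exact permutation adjusted p = 0.022), which no longer passed without untreated replicate 1 or without untreated replicate 2. MTA3 had means of 54.6 CPM in untreated cells, 52.6 at 0.15 µM, 37.3 at 0.25 µM and 16.4 at 0.5 µM. MTA2 to MTA1 differed by -0.17 (exact permutation adjusted p = 0.343). The MTA2 to MTA1 ratios were 3.13, 3.38 and 3.02 in untreated libraries and lower, at 2.02, 2.38 and 2.57, with 0.15 µM. Their means were 2.69, 3.26 and 3.16 at 0.25, 0.5 and 1 µM. For RCOR3 to RCOR1 and SIN3B to SIN3A the log2 differences of 0.30 and 0.26 did not pass (exact permutation adjusted p = 0.0762 and 0.279). SIN3B to SIN3A had mean ratios of 0.535 in untreated libraries and 0.822, 0.703, 0.524 and 0.561 in order of dose. Comparisons of 3 libraries with 3 cannot give an exact p below 0.1, so the single doses are described without a test.

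**Figure D3:**
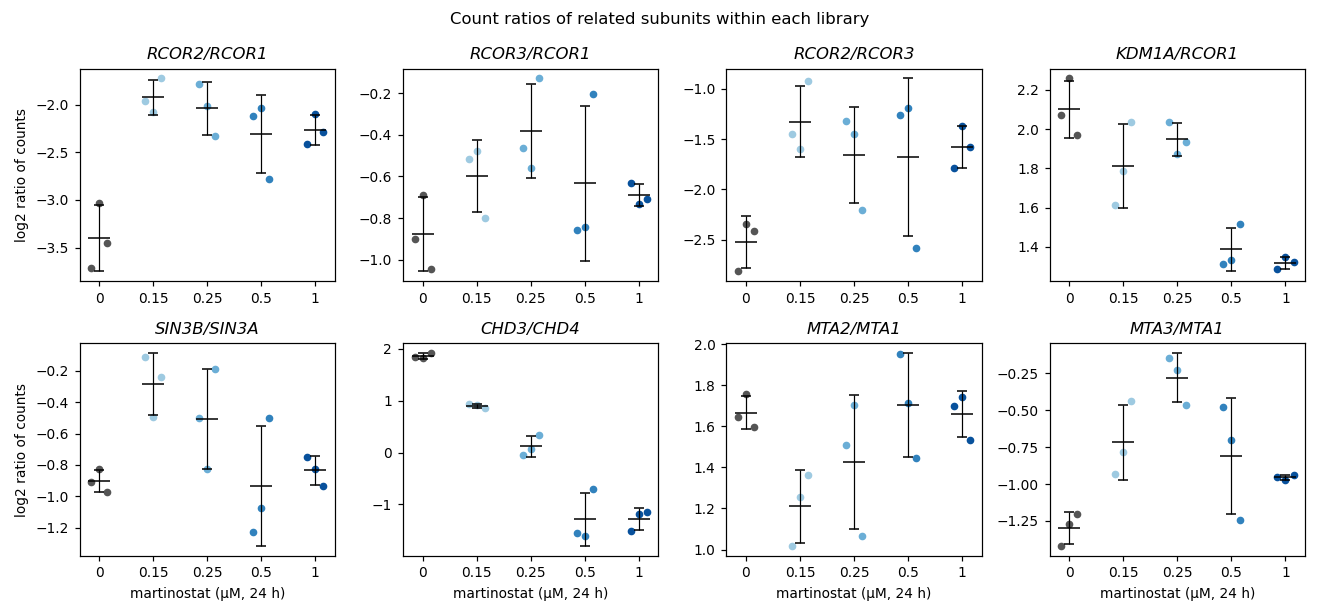
Log2 ratio of the raw counts of 2 related genes in each library (vertical axis, not corrected for gene length) against martinostat dose in µM. Coloured points are the 3 libraries of a dose, black bars the mean and SD. CHD3 to CHD4 falls from 1.86 in untreated cells to -1.28 at 1 µM, and RCOR2 to RCOR1 lies higher in all 12 treated libraries.

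The other subunits of the 4 complexes give the setting. A list of 38 such genes outside the 9, set by complex, had 3 genes higher with 19 lower at the lowest dose, then 2 with 24, 10 with 17 and, at 1 µM, 9 with 16. Its median log2 fold change was -0.45, -0.56, -0.25 and -0.21 in order of dose, against 0.28 to 0.34 for all tested genes and against -0.48, -0.35, 0.16 and 0.18 for the 9. With TMM 31.9%, 37.4%, 39.4% and 38.8% of all tested genes were called higher in order of dose. The shares called lower were 19.4%, 24.8%, 27.6% and 27.5%. With library totals the split of the 38 at 1 µM was about even, 16 higher and 15 lower, where 69.3% of all called genes were higher. Under all 4 scalings 9 of the 38 were higher and 15 lower at that dose, and the share of all genes that did so was not taken.

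NuRD was the complex with the most falls. Counting members, and subunits that it shares with SIN3, 11 of its 15 genes were lower at 1 µM and 2 were higher, beside 27.5% and 38.8% of all genes, and all 13 kept that call under the 4 scalings. Besides MTA1 the lower genes held its paralogues MTA2 at -2.13 ± 0.14 and MTA3 at -1.78 ± 0.16, CHD3 at -2.73 ± 0.18 and CDK2AP1, a small subunit, at -2.82 ± 0.16, all called by edgeR. CHD4 and CHD5, a helicase best known from neurons, were the higher ones, CHD5 from 0.85 ± 0.40 to 6.85 ± 0.86 CPM (SD, n = 3). HDAC2, a catalytic subunit, was at -1.70 ± 0.13 at 1 µM, whereas HDAC1 was at 0.36 ± 0.17 and was not called there.

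SIN3 and CoREST were mixed at 1 µM, with shares of genes higher and lower near the 38.8% and 27.5% of all genes. In NCoR the called genes were all lower at that dose, and 3 of its 6 genes were not called. Of 20 SIN3 genes 7 were higher and 5 lower at 1 µM, with ING1 at 1.03 ± 0.18, SAP30L at 0.72 ± 0.14 and KDM5A at 0.65 ± 0.13 at one end and SINHCAF at -2.39 ± 0.13 at the other, where RBBP4, a histone-binding subunit shared with NuRD, was at -1.28 ± 0.12. SIN3A thus stood among 7 genes of its complex that were higher at this dose, SIN3B with it. Of 11 CoREST genes 3 were higher, RCOR2, HMG20B at 1.04 ± 0.26 and PHF21A at 0.66 ± 0.14, and 4 were lower, among them ZMYM3 at -1.19 ± 0.16 and GSE1 at -1.13 ± 0.16. Of 6 NCoR genes 3 were lower and 0 higher, NCOR1 with the beta-propeller subunits TBL1X at -1.58 ± 0.17 and TBL1XR1 at -1.13 ± 0.17. The count of 0 higher in NCoR is edgeR's, beside 38.8% of all genes called higher at that dose.

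**Figure D4:**
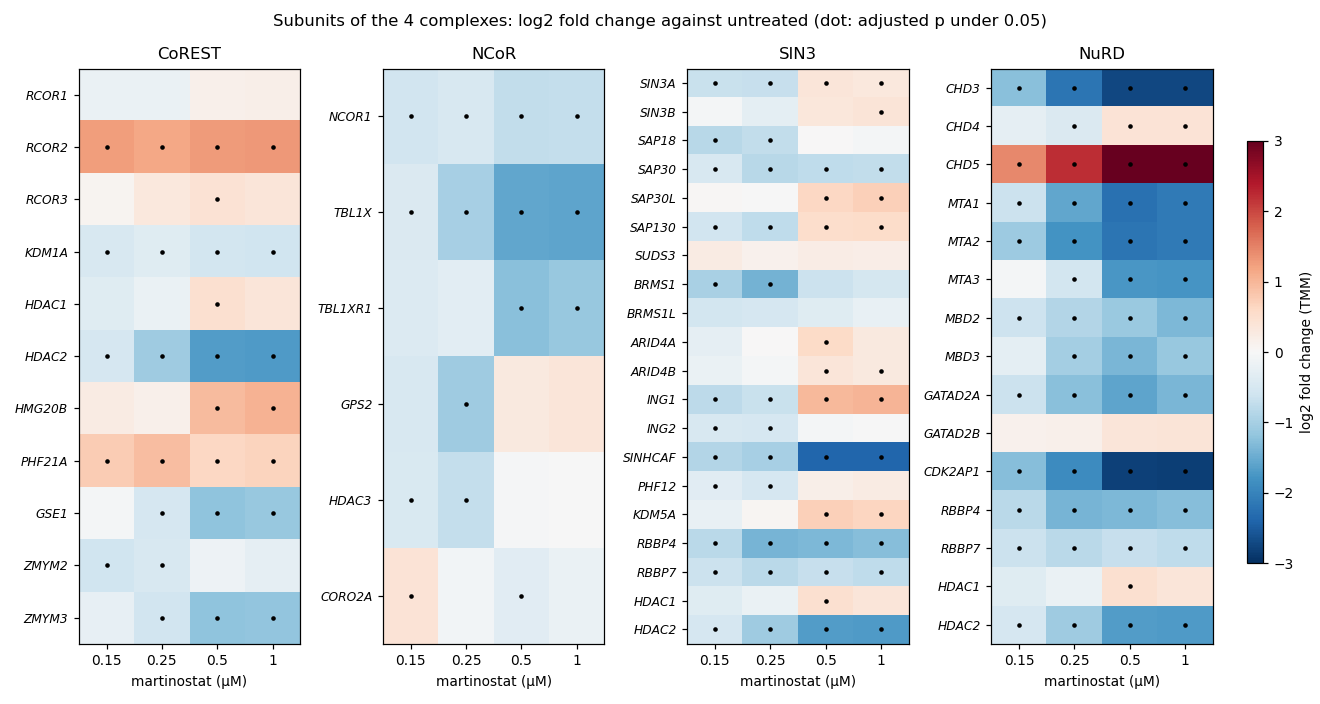
Log2 fold change against untreated cells (colour, TMM scaling, limited to ±3) for every listed gene of the CoREST, NCoR, SIN3 and NuRD complexes at 4 doses in µM. Dots mark an adjusted p under 0.05 in edgeR's quasi-likelihood test, and HDAC1, HDAC2, RBBP4 and RBBP7 appear in each complex they belong to. NuRD shows the most falls, 11 of 15 genes at 1 µM, and SIN3A turns from lower to higher between 0.25 and 0.5 µM.

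REST is a zinc finger protein that binds a DNA element called RE1 at neuronal genes (ENSG00000084093, chr4:56907876-56966808, plus strand). Its mRNA was at 62.6, 53.4 and 50.0 CPM in untreated libraries, 39.8, 45.4 and 25.3 with 0.15 µM, 34.2, 46.6 and 54.3 with 0.25 µM, 31.0, 35.1 and 37.5 with 0.5 µM and 32.7, 31.4 and 33.2 with 1 µM. At 0.15, 0.5 and 1 µM all libraries were below the untreated ones, and at 0.25 µM the third library, one of those that stood apart, lay within their range. With TMM the log2 fold changes were -0.59, -0.30, -0.68 and -0.77, each ± 0.19, with edgeR adjusted p of 0.0159, 0.188, 0.00452 and 0.00177. Library totals gave -0.22, 0.24, -0.29 and -0.42 and factors from genes of at least 10 CPM gave -0.33, 0.13, -0.26 and -0.39, with no call at any dose, and the 0.15 µM call was also lost without untreated replicate 1 or without the third 0.15 µM library. USP7, a deubiquitinase reported to stabilise REST protein, was -1.87 ± 0.15 at 1 µM, and BTRC, of the ubiquitin ligase that marks REST for decay, was -0.48 ± 0.15, both called by edgeR. SRRM4, a splicing factor that makes a short REST form in neurons, had 0 counts in untreated libraries and 31, 36, 20 and 7 counts over the 3 libraries of each dose in rising order, so it was most abundant at the 2 lower doses, with a mean of at most 0.37 CPM.

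Genes that REST is known to repress moved much further than REST itself. Of 15 listed genes 13 were tested, and 12 were higher and 1 lower at 1 µM, beside 38.8% of all genes called higher and 27.5% called lower. At 0.15 µM 12 were already higher, beside 31.9% of all genes. STMN2 and SNAP25 had 0 counts without martinostat and entered the test only through treated libraries, and CHGA and BDNF had 7 and 2 counts over the 3 untreated libraries, so a fall could not have been called for the first pair or readily for the second, and the counts are a description. VGF, a neuropeptide precursor, was at 7.24, 7.15 and 9.04 CPM in untreated libraries, averaged 525.9 ± 85.5 at 0.15 µM and 948 ± 347 at 0.25 µM, and reached 3343, 2993 and 3447 CPM at 1 µM, a log2 fold change of 8.71 ± 0.35 (edgeR adjusted p = 3.32e-13). STMN2, a tubulin-binding protein of axons, had 0 counts in untreated libraries and 4.83, 4.80 and 4.78 CPM at 1 µM, at least 121-fold higher when 3 counts over the untreated group are taken as the floor. SNAP25, a synaptic membrane fusion protein, also had 0 counts untreated and was at 1.05 ± 0.18 CPM at 1 µM, at least 26.6-fold higher. The exception was the sodium channel SCN2A, which fell from 6.14 ± 0.66 to 1.03 ± 0.38 CPM. The median log2 fold change of the 13 was 3.86, 3.77, 5.26 and 5.61 in order of dose, and 3.41, 3.73, 4.91 and 4.98 with the genes at 0 counts set to their bounds.

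The RE1 element stands in most of these genes as exact letters. A search of hg38 on both strands for the core of the RE1 element, 16 letters of which 14 are fixed, from 5 kb before to 5 kb after each gene found it in 10 of the 15 genes and in 348 of 20046 protein-coding genes, which is 1.74%. The genes are known as REST targets through this element, so the count describes the list and is no separate finding. None of the 9 co-repressor genes had a match, which says only that these letters are not in those windows. Sites from 5 genes that rose and from SCN2A, which fell, are shown 5′ to 3′ on the strand of the match, with the searched letters in capitals.
CHGA (chr14:92923523-92923543, plus strand, intron): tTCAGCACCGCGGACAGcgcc
SYN1 (chrX:47620070-47620090, minus strand, 223 bases upstream of the gene start): tTCAGCACCGCGGACAGtgcc
GRIN1 (chr9:137139260-137139280, plus strand, exon outside the coding sequence): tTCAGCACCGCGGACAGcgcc
SNAP25 (chr20:10219672-10219692, plus strand, intron): tTCAGCACCGGGGACAGcggt
UNC13A (chr19:17681753-17681773, minus strand, intron): tTCAGCACCGTGGACAGcgcc
SCN2A (chr2:165238484-165238504, plus strand, intron): cTCAGCACCATGGACAGcgtt
At 1 µM SYN1, a synaptic vesicle protein, stood at 78.2 ± 14.6 CPM against 0.83 ± 0.14 untreated, UNC13A, a vesicle priming protein, at 55.3 ± 4.60 against 2.57 ± 0.44, GRIN1, an NMDA receptor subunit, at 18.0 ± 0.77 against 1.22 ± 0.30, and CHGA, chromogranin A, at 4.71 ± 0.66 against 0.09 ± 0.08 (SD, n = 3). The capitals of these sites are the same outside the 2 open positions, while the genes differ in direction, since SCN2A carries such a site and fell.

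**Figure D5:**
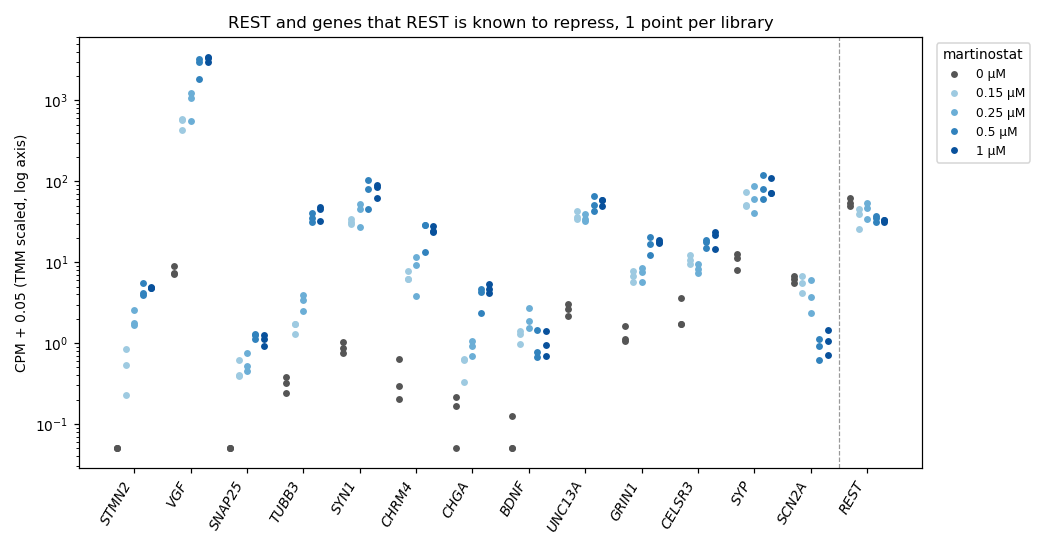
Level of 13 genes known to be repressed by REST, and of REST at the right of the dashed line, in every library, as CPM + 0.05 on a log axis, coloured by martinostat dose with 0 µM for untreated cells. Genes are ordered by the log2 fold change at 1 µM. Of the 13, 12 lie higher at 1 µM, SCN2A lies lower, and REST spans 25.3 to 62.6 CPM.

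Other DNA-binding factors that recruit these complexes went both ways. Of 9 such genes, REST included, 3 were higher and 4 lower at 1 µM, shares near the 38.8% and 27.5% of all genes. GFI1B, the erythroid repressor that works through CoREST, went from 136.1, 151.5 and 154.9 CPM in untreated libraries to 3.37, 3.11 and 4.57 at 1 µM, a log2 fold change of -5.32 ± 0.17 (edgeR adjusted p = 2.31e-14). IKZF1, which binds NuRD in lymphoid cells, was at -3.28 ± 0.17, and BCL6, which binds NCoR, at 2.97 ± 0.55.

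Over the 15 libraries, and among 10127 genes that averaged 10 CPM or more, the genes with log2 CPM most like that of MTA1 were CAPN15, TYMS and POLR3E, at Pearson r of 0.993, 0.992 and 0.991. For RCOR2 they were MYL9, EHD2 and CLSTN3, at 0.969, 0.967 and 0.966, and for REST they were TET2, ATP11B and ANGEL2, at 0.955, 0.938 and 0.936. The points share the same 15 libraries and the same dose groups, so these values describe likeness only.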

How the data were processed

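Poly(A) RNA of untreated and martinostat-treated K562 cells was sequenced in 15 libraries made with a directional kit. The deposited table holds raw counts per gene, made by the authors with Trim Galore 0.6.10, HISAT2 2.2.1 on hg38, SAMtools 1.21, featureCounts 1.5.3 and GENCODE 38. The strand setting of the counting is not given in the sources used here, so reads of genes that overlap in antisense cannot be told apart. The deposited FPKM values divide by the span of the gene, introns included, and served only for limma alternatives, on log2(FPKM + 1) and log2(FPKM + 0.1).

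Counts were fitted with edgeR 4.0.16 (TMM, filterByExpr, robust quasi-likelihood, 10 residual degrees of freedom) in R 4.3.3, with group as the only term and Benjamini-Hochberg adjustment over 23711 genes. Standard errors are the log2 fold change divided by the root of its F. Ratios took 0.5 added to each count. Alternatives used DESeq2 1.42.0, limma 3.58.1, other scalings and filters, the compared groups only, a replicate block, and each library left out. Same-numbered libraries at 0.25 and 0.5 µM deviated together (correlations of 0.209, 0.208 and 0.506 across genes), and those of no other 2 groups did so at over 0.1, so a paired edgeR fit of these 6 libraries was added. The code was tested on simulated data. Coordinates and overlaps come from GENCODE 44 (hg38), promoters from RefSeq. The genes and lists were chosen with earlier results of these data known. Beside the 9 genes, those named are the paralogues in the ratios, up to 3 listed genes at each end of the 1 µM log2 fold changes among called genes whose libraries did not overlap (up to 4 for REST targets), the 3 genes most like each of the 3 members with the largest change, the REST regulators, HDAC1 beside HDAC2, and genes said to be chosen after their values were seen or shown for their sequence. Some listed genes, and 1 ratio, are not reported here.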

Additional observations from a re-analysis of the deposited data

Results flagged for a closer look

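SIN3A and CHD4 changed in opposite directions against untreated cells at different doses, and the test of the difference between the doses passed. For SIN3A the rise from 0.25 to 0.5 µM was 1.05 and the rise from 0.15 to 1 µM was 1.00 on the log2 scale in edgeR's quasi-likelihood fit. For CHD4 the rise from 0.25 to 0.5 µM was 0.85. The differences between doses were called under all 4 scalings, while the falls against untreated cells at the lower doses were not, as given for each gene.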

How the results depend on the processing

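For each comparison 27 alternatives were run: 3 other scalings, no filter, at least 10 counts in every library, a fit without robust weights, DESeq2, limma on FPKM with 2 pseudocounts, the compared groups only, a replicate block, each of the 15 libraries left out, and, added after seeing the data, both of the libraries numbered 3 at 0.25 and 0.5 µM left out. The calls of RCOR2 at every dose, of NCOR1 at 1 µM, of MTA1 at 0.25, 0.5 and 1 µM, and of SIN3A, CHD4 and MTA1 from 0.25 to 0.5 µM held in all 27.

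Of the 9 genes, the number called at 0.15 µM went from 6 to 1 with library totals, 3 with factors from genes of at least 10 CPM, and 1 with limma at either pseudocount. At 0.25 µM it went from 6 to 3 with those factors and 3 with limma at either pseudocount. Leaving out 1 library gave 5 to 8 at 0.5 µM, with 5 without any one of the untreated replicates, where RCOR3, SIN3A and CHD4 lost their calls. Of the 38 other subunits, the number called at 0.15 µM went from 22 to 14 with those factors and to 11 and 10 with limma on log2(FPKM + 1) and log2(FPKM + 0.1), and at 0.25 µM from 26 to 17 with limma on log2(FPKM + 1). At 0.25 µM the sign of a value called in either fit turned with library totals for RCOR1 (0.32), NCOR1 (0.0445), KDM1A (0.17) and CHD4 (0.0821), with those factors for KDM1A (0.0662), with limma on log2(FPKM + 1) for NCOR1 (0.0190), KDM1A (0.14) and CHD4 (0.0379), and with limma on log2(FPKM + 0.1) for NCOR1 (0.0381), KDM1A (0.17) and CHD4 (0.0665). Values called in neither fit also turned, at 0.25 µM for REST with library totals (0.24), those factors (0.13) and limma, for RCOR1 with those factors (0.22), limma and at least 10 counts in every library, and at 0.15 µM for RCOR1 and CHD4 with library totals and limma, for RCOR1 with those factors, and for RCOR3 without the second 0.15 µM library. The cause was not tested. The limma values of MTA1 at 1 µM were -0.94 with log2(FPKM + 1) and -1.62 with log2(FPKM + 0.1). FPKM is scaled by library totals, which alone gave -1.76 in edgeR, and a pseudocount also shrinks the change of a gene with low FPKM. Of the 8 ratios, 0 passed with 3 libraries against 3 at any dose, where the smallest exact p is 0.1, and 2 to 5 passed with 1 library left out, 2 without untreated replicate 1.

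The replicate block over all 15 libraries left 6, 6, 8 and 6 of the 9 genes called in order of dose, with SIN3A at 1 µM (0.32, adjusted p = 0.0577) and RCOR1 from 0.25 to 0.5 µM (0.36, adjusted p = 0.0559) no longer called by edgeR. For the 0.25 and 0.5 µM libraries, whose numbers pair them, a block in a fit of these 6 alone, added after seeing the data, called 6 of the 9 from 0.25 to 0.5 µM against 4, with RCOR1 at 0.35 (adjusted p = 0.00856). That fit called 9935 of the 21562 genes it tested, against 7211 of 23711 in the main fit. Precision is limited by 3 libraries a group rather than by depth for the 9 genes.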
